A study of Mus musculus with 12 samples.

Results

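The interleukin-1 (IL-1) family genes Il1a, Il1b, Il1rn, Il18, Il18bp, Il1r1, Il1r2 and Il1rap were followed in peritoneal macrophages, phagocytes of the abdominal cavity. They are 8 of the 24562 genes of the deposited count table and were chosen by name: 2 agonists of the IL-1 receptor, their antagonist, IL-18 and its binding protein, and the 3 receptor chains. The cells came from female mice on a high fat diet (HFD) or on chow and had been exposed to lipopolysaccharide (LPS), a bacterial outer membrane component, for 24 h or 0 h. The 4 groups were HFD 24 h, HFD 0 h, chow 24 h and chow 0 h, with 3 libraries each. The sources used here give no strain, age, length of feeding or LPS dose, and they list no 24 h group free of LPS; an effect of LPS and one of time in between therefore cannot be told apart.

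IL-1α and IL-1β bind the same receptor, IL1R1, which signals once the accessory chain IL1RAP has joined it. The antagonist IL-1Ra, made from Il1rn, occupies IL1R1 without signalling, and the decoy receptor IL1R2 binds IL-1 without a signalling domain. IL-1β and IL-18 are made as precursors that caspase-1 cuts within inflammasomes, and IL-18 is neutralised in the extracellular fluid by IL-18 binding protein, made from Il18bp. In macrophages, Il1b is a classical target of the NF-κB signalling that LPS starts through Toll-like receptor 4.

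The lowest library total was 2360244 counts (HFD 0 h replicate 3), the next lowest 9135057, and the highest 20688308 (HFD 24 h replicate 3). HFD 0 h replicate 3 also stood apart from the other libraries on the second principal component, so values that rest on it are also given without it. Markers of macrophages were abundant in every library, with 10 of 10 tested and a summed level of 10380 to 12960 CPM (counts scaled to a common library size) at HFD 24 h, 14500 to 16140 at HFD 0 h, 10320 to 11560 at chow 24 h and 14710 to 16050 at chow 0 h. Of 13 neutrophil markers, Csf3r (62.4 to 99.3 CPM), Mmp9 (14.6 to 76.0), S100a8 (8.08 to 51.3), Mmp8 (14 to 30.0) and Retnlg (0 to 16) were present, and the other 8, S100a9 and Ly6g among them, had at most 2.25 CPM in any library. S100a8 rose with LPS by 0.99 ± 0.27 on the log2 scale in HFD and by 1.94 ± 0.26 in chow (edgeR). Mmp9 rose by 1.79 ± 0.29 in HFD and by 1.07 ± 0.26 in chow. Of the 6 neutrophil markers tested, 2 rose and 0 fell in HFD, and 2 rose and 1 fell in chow. Cxcr2 fell in chow (-3.63 ± 1.07) and had -2.31 ± 0.835 in HFD, where it did not pass. Csf3r, Mmp8 and Retnlg did not pass in either diet. The part of such cells in the LPS changes below was not tested. Gata6, which marks resident large peritoneal macrophages, had 4.25 to 6.66 CPM at HFD 24 h, 8.74 to 12.7 at HFD 0 h, 5.96 to 16.9 at chow 24 h and 8.23 to 17.7 at chow 0 h. The LPS change of Gata6 did not pass in either diet. Of the 10 listed markers of these macrophages, Timd4, Prg4 and F10 rose in both diets, Vsig4 fell in both and 6 did not pass.

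The upstream sequences of the 4 members with the largest LPS changes are shown first, because these genes differ in what lies near their start. Il1a and Il1b are neighbours on the minus strand of chromosome 2 with 54.6 kb between them (chr2:129299610-129309972 and chr2:129364570-129371139, GRCm38), and Il1rn lies on the plus strand of the same chromosome, where the transcript counted here covers chr2:24345310-24350936. Il18bp lies on the minus strand of chromosome 7 at chr7:102014885-102018155. Each window below holds 250 bases before and 50 bases from the start site in RefSeq (GRCm38.p6), 5′ to 3′ on the gene's strand. Capitals mark the motif matches.
Il1a, chr2:129309923-129310222, minus strand: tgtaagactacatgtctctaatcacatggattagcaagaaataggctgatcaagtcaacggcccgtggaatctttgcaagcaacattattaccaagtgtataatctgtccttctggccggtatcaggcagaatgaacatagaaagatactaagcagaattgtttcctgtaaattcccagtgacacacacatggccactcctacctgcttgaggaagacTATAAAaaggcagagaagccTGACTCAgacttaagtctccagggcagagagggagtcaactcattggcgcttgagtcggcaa
Il1b, chr2:129371090-129371389, minus strand: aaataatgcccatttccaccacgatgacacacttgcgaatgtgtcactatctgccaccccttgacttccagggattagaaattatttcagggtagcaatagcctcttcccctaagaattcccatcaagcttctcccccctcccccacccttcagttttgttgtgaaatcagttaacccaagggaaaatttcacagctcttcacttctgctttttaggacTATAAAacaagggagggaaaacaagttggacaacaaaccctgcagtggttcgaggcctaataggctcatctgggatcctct
Il1rn, chr2:24336610-24336909, plus strand: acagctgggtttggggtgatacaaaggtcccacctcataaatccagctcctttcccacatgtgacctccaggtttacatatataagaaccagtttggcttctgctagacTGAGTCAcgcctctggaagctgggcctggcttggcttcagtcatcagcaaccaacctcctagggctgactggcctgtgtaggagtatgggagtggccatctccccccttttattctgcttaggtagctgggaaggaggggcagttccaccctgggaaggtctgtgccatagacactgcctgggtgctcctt
Il18bp, chr7:102018183-102018482, minus strand: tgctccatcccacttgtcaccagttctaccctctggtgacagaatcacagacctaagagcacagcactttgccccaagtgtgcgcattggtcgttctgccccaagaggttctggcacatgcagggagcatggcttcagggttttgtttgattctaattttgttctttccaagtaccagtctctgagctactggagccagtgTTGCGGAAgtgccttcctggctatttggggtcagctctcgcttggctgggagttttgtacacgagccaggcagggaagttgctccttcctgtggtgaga

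All 8 members had at least 1 window, 11 in all, and 6 motifs were searched in them. These were the AP-1 motif TGANTCA, the C/EBP motif TTNNGCAA, the interferon-response motif (GAAA, any 2 bases, GAAA), the STAT motif TTCNNNGAA and the NF-κB motif on both strands, and TATAAA on the gene's strand. Il1a held TATAAA at positions -32 to -27 and TGACTCA at -12 to -6, counting back from -1 as the base before the start. Il1b held TATAAA at -31 to -26 and none of the other 5 motifs. TATAAA occurred in 8.3% of all 32851 mouse windows of this length and the AP-1 motif in 7.8%.

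The most upstream of the 3 Il1rn windows held TGAGTCA at -141 to -135. The counted Il1rn transcript starts near the other 2 Il1rn windows, which held none of the 6 motifs. The Il18 window (chr9:50554450-50554749) held none either, but it lies upstream of the counted Il18 transcript, which starts at chr9:50565374. The Il1r2 window (chr1:40085843-40086142) lies inside the counted Il1r2 transcript, which starts at chr1:40084698. Il18bp held the C/EBP motif, found in 10.8% of all windows, at -49 to -42 on the opposite strand, shown as TTGCGGAA. The Il18bp window lies wholly upstream of the counted Il18bp transcript, which starts at chr7:102018155 on the minus strand. Among the receptors, Il1r1 had a C/EBP match in one window and an NF-κB match in the other, Il1r2 a STAT match and Il1rap an interferon-response match. These 3 motifs occurred in 4.5% (NF-κB), 8.3% (STAT) and 3.4% (interferon-response) of all windows. A match describes letters only and is neither a site nor a cause.

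Exposure to LPS for 24 h raised 5 of the 8 members in both diets: Il1a, Il1b, Il1rn, Il18bp and Il1rap. No member fell. Of the other 3, Il18 and Il1r1 did not pass the test in either diet, and Il1r2 had too few counts to be tested. The 5 increases compare with 24.6% of the 12641 genes tested that passed in HFD (12.7% as higher) and 26.6% in chow (13.7% as higher), by edgeR's quasi-likelihood test with Benjamini-Hochberg adjustment at 0.05. The median log2 fold change of the 7 tested members was 1.52 in HFD and 2.04 in chow, whereas that of all genes tested was close to 0 in both. Since RNA was measured in bulk, fewer cells of a type and less RNA per cell cannot be told apart.

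**Figure D1:**
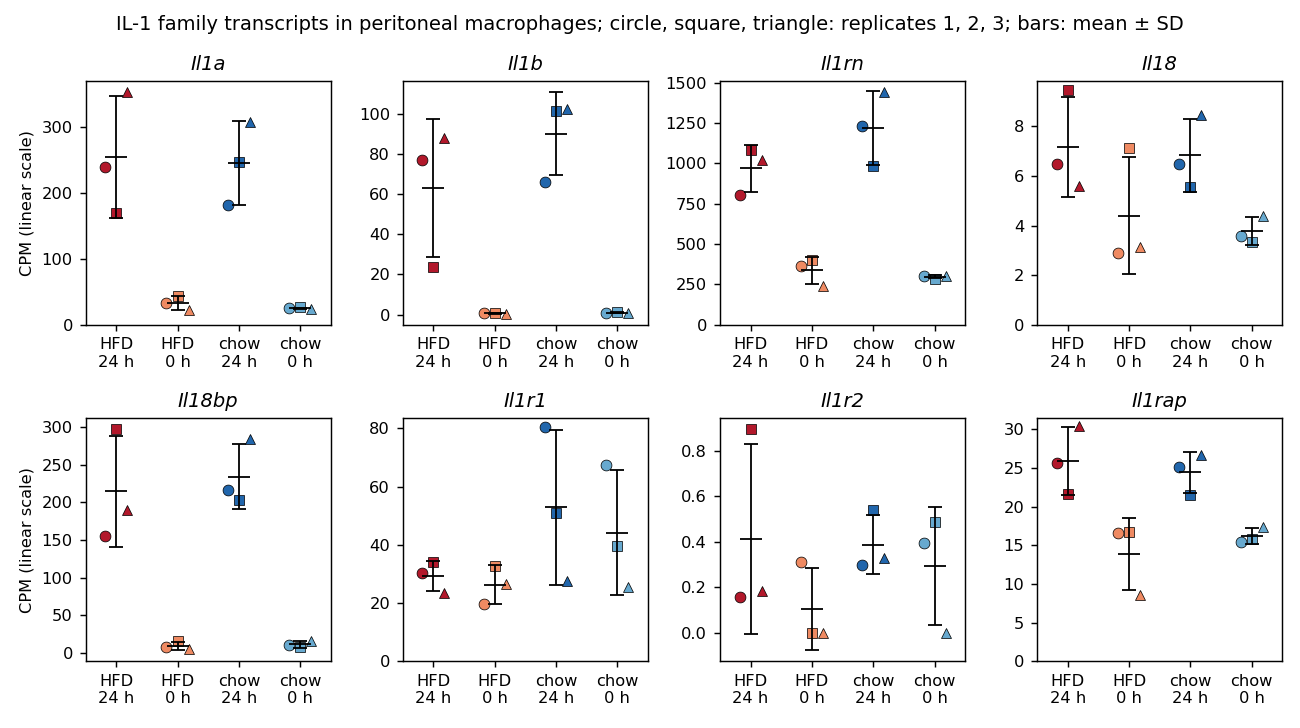
Level of each member (y axis, CPM on a linear scale) in the 3 libraries of HFD 24 h, HFD 0 h, chow 24 h and chow 0 h (x axis); symbols are replicates 1 to 3 and bars the mean ± SD. Il1a, Il1b, Il1rn, Il18bp and Il1rap lay higher in every 24 h library than in every 0 h library of the same diet, and Il1r1 and Il1r2 did not separate by time. Such a separation is not a call, since Il18 separated in chow too without passing the test. The share of all genes tested with such a separation was not counted.

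Among the agonists, Il1b, which encodes the secreted IL-1β, moved most. It had 76.8, 23.8 and 87.9 CPM in the HFD 24 h libraries against 0.728, 0.556 and 0.449 CPM at HFD 0 h, and 66.0, 102 and 102 CPM at chow 24 h against 0.792, 1.38 and 0.748 CPM at chow 0 h. At 0 h it was near the limit of counting: the HFD 0 h libraries held 13 Il1b counts together and the chow 0 h libraries 36, against 3301 at HFD 24 h and 3581 at chow 24 h. HFD 24 h replicate 2 was low beside the other 24 h libraries, and no 24 h library overlapped the 0 h libraries. The log2 fold change was 6.64 ± 0.61 (SE) in HFD (99.5-fold, adjusted p = 1.96e-06) and 6.52 ± 0.51 in chow (91.5-fold, adjusted p = 3.84e-07), by edgeR.

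Il1a encodes IL-1α, which is active without cleavage and is often released from damaged cells. Its level was 239, 169 and 352 CPM at HFD 24 h against 32.9, 43.8 and 21.6 CPM at HFD 0 h, and 181, 246 and 308 CPM at chow 24 h against 24.7, 26.2 and 24.3 CPM at chow 0 h. Each 24 h library was above each 0 h library, and within 24 h the diets overlapped. The log2 fold change was 2.90 ± 0.28 in HFD (7.47-fold, adjusted p = 1.48e-06) and 3.29 ± 0.28 in chow (9.76-fold, adjusted p = 3.51e-07). The noncoding gene Gm14023 overlaps Il1a by 8217 bases on the opposite strand, and its counts equalled 12.6% to 25.0% of those of Il1a. The sources used here do not state whether the counting used strand, and reads of the pair cannot be told apart.

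Il1rn, the antagonist, was the most abundant member in every group. It had 806, 1084 and 1023 CPM at HFD 24 h against 367, 402 and 242 CPM at HFD 0 h, and 1235, 982 and 1443 CPM at chow 24 h against 303, 286 and 302 CPM at chow 0 h. The 24 h and 0 h libraries were well apart in both diets, and the chow 0 h libraries were nearly equal. Its log2 fold change was 1.52 ± 0.18 in HFD (2.87-fold, adjusted p = 7.42e-06) and 2.04 ± 0.19 in chow (4.11-fold, adjusted p = 2.62e-07).

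Il18 was low at all times. Its level was 6.48, 9.46 and 5.59 CPM at HFD 24 h against 2.91, 7.12 and 3.14 CPM at HFD 0 h, and 6.49, 5.56 and 8.44 CPM at chow 24 h against 3.56, 3.32 and 4.40 CPM at chow 0 h. HFD 0 h replicate 2 was above HFD 24 h replicates 1 and 3, so the HFD groups overlapped, whereas the chow groups did not. The log2 fold change was 0.64 ± 0.34 in HFD (95% interval -0.09 to 1.36, adjusted p = 0.199) and 0.86 ± 0.33 in chow (0.17 to 1.56, adjusted p = 0.0632). Without HFD 0 h replicate 2 the HFD value became 1.27 (adjusted p = 0.0196), and in chow the adjusted p was 0.0458 without HFD 0 h replicate 1 and 0.0289 without HFD 0 h replicate 2, so the call on Il18 turned on single libraries. In chow it also passed with DESeq2 (adjusted p = 0.0438) and when only the chow libraries were fitted (adjusted p = 0.0243).

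Il18bp, the soluble antagonist of IL-18, showed the second largest change. It had 155, 298 and 190 CPM at HFD 24 h against 7.59, 16.1 and 4.94 CPM at HFD 0 h, and 216, 203 and 284 CPM at chow 24 h against 10.5, 8.02 and 16.7 CPM at chow 0 h. All 24 h libraries lay far above all 0 h libraries. The log2 fold change was 4.36 ± 0.39 in HFD (20.5-fold, adjusted p = 1.3e-06) and 4.32 ± 0.37 in chow (20-fold, adjusted p = 8.19e-07). The protein-coding gene Numa1 overlaps Il18bp by 80 bases on the opposite strand. At 0 h, Numa1 had 438 to 1668 counts and Il18bp 11 to 201. Reads of that stretch cannot be told apart, and their part in the Il18bp values was not tested.

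Of the receptor chains, Il1rap (chr16:26581757-26717744, plus strand), which encodes the accessory chain shared by the receptors for IL-1, IL-33 and IL-36, was the one that rose. It had 25.7, 21.7 and 30.4 CPM at HFD 24 h against 16.5, 16.7 and 8.54 CPM at HFD 0 h, and 25.1, 21.5 and 26.6 CPM at chow 24 h against 15.4, 15.8 and 17.4 CPM at chow 0 h. The groups did not overlap in either diet. The log2 fold change was 0.82 ± 0.21 in HFD (1.76-fold, adjusted p = 0.00709) and 0.59 ± 0.20 in chow (1.51-fold, adjusted p = 0.0351).

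The chow call on Il1rap was lost without chow 0 h replicate 1, 2 or 3 or chow 24 h replicate 1 or 3, with adjusted p between 0.0643 and 0.109. It was also lost with upper-quartile scaling (adjusted p = 0.0546) and with the lane tag in the model (adjusted p = 0.341). Further Il1rap transcript rows had mean counts of 104, 104 and 92.4, against 273 for the row used. The shortest has 2306 bases, against 4520 for the row used, of which 3044 are in no other row (chr16:26714701-26717744). The antisense gene Gm20319 (chr16:26714446-26755502, opposite strand) spans that stretch. Its counts were 27, 44 and 58 at HFD 24 h against 19, 12 and 0 at HFD 0 h. In chow they were 41, 15 and 26 at 24 h against 17, 14 and 9 at 0 h. As for Il1a, reads of the pair cannot be told apart. The counts of the row used were 1.73 to 3.6 times those of the shortest row. With the shortest row, which has the lowest mean count of the Il1rap rows, the log2 fold change was 0.63 in HFD (adjusted p = 0.065) and 0.48 in chow (adjusted p = 0.136).

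Il1r1 and Il1r2 adjoin on the plus strand of chromosome 1 with 99.8 kb between them (chr1:40225080-40317257 and chr1:40084698-40125231). Il1r1, the signalling receptor, had 30.2, 34.0 and 23.6 CPM at HFD 24 h against 19.8, 32.9 and 26.5 CPM at HFD 0 h, and 80.6, 50.8 and 27.5 CPM at chow 24 h against 67.6, 39.5 and 25.4 CPM at chow 0 h. Time did not separate the libraries, and the chow libraries ranged more widely than the HFD libraries. The log2 fold change was 0.15 ± 0.40 in HFD (95% interval -0.70 to 1.0, adjusted p = 0.83) and 0.26 ± 0.37 in chow (-0.55 to 1.07, adjusted p = 0.674).

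Beside Il1r1 stand the markers of mesothelial and stromal cells, of which 14 of 14 were in the table and none was at 0 in every library. Their summed level was 1131, 1158 and 1030 CPM at HFD 24 h, 736, 1013 and 1452 CPM at HFD 0 h, 3173, 2224 and 1082 CPM at chow 24 h and 2569, 1408 and 817 CPM at chow 0 h. In chow the order of the 3 replicates was the same for Il1r1 and for this sum at both times, with replicate 1 highest. At HFD 24 h the order was also the same for both, with replicate 2 highest. At HFD 0 h the order differed: the sum was highest in replicate 3 and Il1r1 in replicate 2. The collagen transcript Col1a1 made up much of the sum, with 485 to 568 CPM at HFD 24 h, 309 to 762 at HFD 0 h, 519 to 1517 at chow 24 h and 359 to 1062 at chow 0 h. The mesothelial marker Msln had at most 4.04 CPM in any library. With LPS, members of the list went different ways: of 13 tested, 0 rose and 3 fell in HFD (Upk3b, Lrrn4 and Krt8), and 2 rose (Pdgfrb and Thy1) and 2 fell (Upk3b and Lrrn4) in chow. Gata6 ran in the same replicate order as Il1r1 in each group. The part of these cells in the Il1r1 and Gata6 values was not tested.

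**Figure D2:**
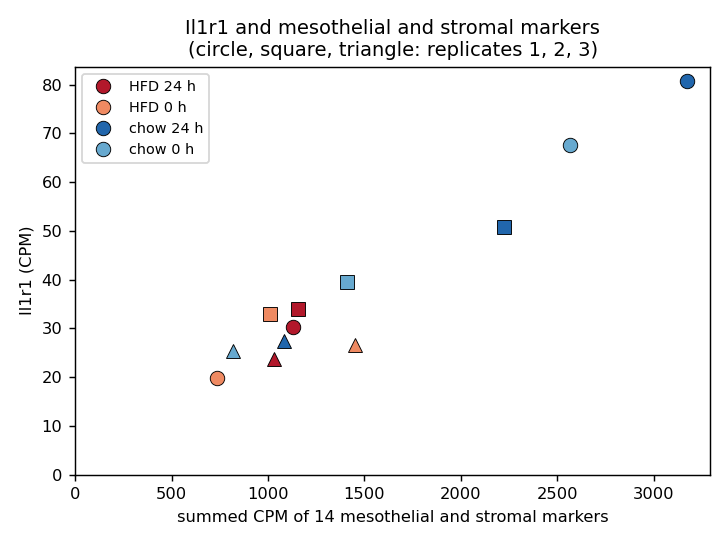
Il1r1 level (y axis, CPM) against the summed level of 14 mesothelial and stromal markers (x axis, CPM) in each of the 12 libraries; colours are groups and symbols replicates 1 to 3. The chow 24 h and chow 0 h libraries of replicate 1 stand at the upper right, with 80.6 and 67.6 CPM of Il1r1.

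Il1r2, the decoy receptor, was near the detection limit. Its counts were 2, 16 and 4 at HFD 24 h, 3, 0 and 0 at HFD 0 h, 4, 6 and 5 at chow 24 h and 5, 6 and 0 at chow 0 h. HFD 24 h replicate 2 held most of the HFD counts. All libraries but HFD 24 h replicate 2 held at most 6 counts. For scale, 3 counts equal 1.27 CPM in the shallowest library and 0.145 CPM in the deepest. Tested without a filter on low counts, its log2 fold change was 1.60 in HFD (adjusted p = 0.465) and 0.39 in chow (adjusted p = 0.901).

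Without HFD 0 h replicate 3, the shallow library, the 5 increases in HFD still passed. The log2 fold changes were then 6.59 for Il1b, 4.18 for Il18bp, 2.73 for Il1a, 1.34 for Il1rn and 0.65 for Il1rap, and 0.52 for Il18 (adjusted p = 0.335).

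**Figure D3:**
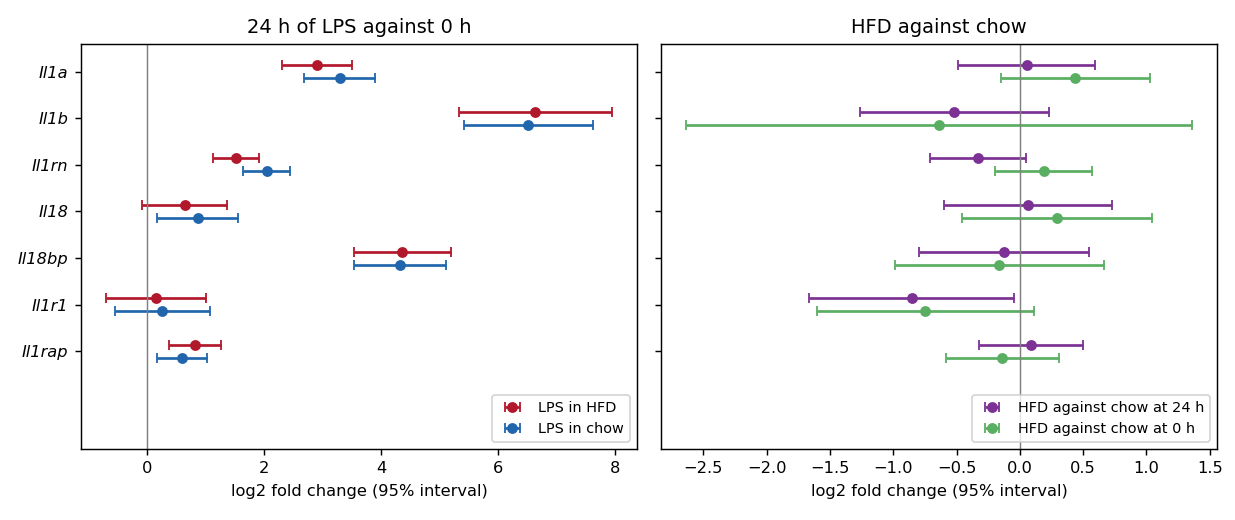
Log2 fold change of the 7 tested members with its 95% interval (x axes), for 24 h of LPS against 0 h in HFD and in chow (left) and for HFD against chow at 24 h and at 0 h (right). In the left panel the values range from 0.15 for Il1r1 to 6.64 for Il1b, and in the right panel the interval of Il1r1 at 24 h, -1.67 to -0.04, is the one that leaves out 0.

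Divided by transcript length, the levels ordered the members as follows. At HFD 24 h, Il1rn had 489 ± 73.6 CPM per kb (SD, n = 3), Il18bp 135 ± 46.5, Il1a 128 ± 46.7, Il1b 46.4 ± 25.3, Il18 8.34 ± 2.35, Il1rap 5.73 ± 0.967, Il1r1 5.03 ± 0.902 and Il1r2 0.291 ± 0.295. Il18bp and Il1a did not differ beyond their spread, nor did Il18 and Il1rap or Il1rap and Il1r1. At HFD 0 h, Il1rn had 170 ± 42.3 CPM per kb, Il1a 16.6 ± 5.64, Il18bp 5.99 ± 3.67, Il18 5.11 ± 2.75, Il1r1 4.54 ± 1.13, Il1rap 3.08 ± 1.03, Il1b 0.426 ± 0.104 and Il1r2 0.0733 ± 0.127. The values from Il18bp to Il1rap in that order lay within each other's spread.

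At chow 24 h, Il1rn had 614 ± 116 CPM per kb, Il18bp 147 ± 27.4, Il1a 124 ± 32.1, Il1b 66.4 ± 15.3, Il1r1 9.11 ± 4.58, Il18 7.94 ± 1.71, Il1rap 5.41 ± 0.582 and Il1r2 0.273 ± 0.0922. Here Il18bp and Il1a, and likewise Il1r1 and Il18 as well as Il1r1 and Il1rap, did not differ beyond their spread. At chow 0 h, Il1rn had 149 ± 4.69 CPM per kb, Il1a 12.7 ± 0.505, Il1r1 7.59 ± 3.69, Il18bp 7.36 ± 2.81, Il18 4.38 ± 0.661, Il1rap 3.59 ± 0.227, Il1b 0.717 ± 0.259 and Il1r2 0.207 ± 0.182. Il1r1, Il18bp and Il18 lay within each other's spread there, and Il18 and Il1rap did not differ beyond theirs. Il1b thus stood below every member but Il1r2 at 0 h and directly below Il1a at 24 h in both diets, while Il1rn led the order in all 4 groups.

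Ratios of a cytokine to its antagonist within a library do not depend on how libraries are scaled. Il1rn exceeded Il1b per base in every library, and by far less after LPS. Other Il1rn rows, of 728 and 2474 bases, had mean counts of 9244 and 9220, against 9994 for the row used, of 1986 bases. The size of this ratio and of the Il1rn level per kb therefore depends on the row taken. The Il1rn to Il1b ratio of counts per base was 7.16, 31.1 and 7.94 at HFD 24 h against 344, 494 and 368 at HFD 0 h, and 12.8, 6.61 and 9.62 at chow 24 h against 261, 142 and 275 at chow 0 h. On the log2 scale of counts plus 1, the ratio fell by 4.55 in HFD and by 4.42 in chow, with a mean of -4.48 over both diets (exact permutation test within diets, two-sided, p = 0.005, adjusted p = 0.0133 over 8 ratio tests). This p is the smallest that the 400 arrangements can give. HFD 24 h replicate 2 had the highest ratio at 24 h and the lowest Il1b level.

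The balance of the agonists turned toward Il1b as well, although Il1a stayed the higher of the pair in every library. The Il1a to Il1b ratio per base was 2.14, 4.89 and 2.75 at HFD 24 h against 31, 54.1 and 33.0 at HFD 0 h, and 1.88, 1.66 and 2.06 at chow 24 h against 21.4, 13.1 and 22.3 at chow 0 h. The mean log2 change with LPS was -3.18 (exact permutation test, two-sided, p = 0.005, adjusted p = 0.0133). For IL-18 the balance moved the other way, toward the antagonist. The Il18bp to Il18 ratio per base was 12.9, 17 and 18.4 at HFD 24 h against 1.41, 1.22 and 0.848 at HFD 0 h, and 18, 19.7 and 18.2 at chow 24 h against 1.58, 1.30 and 2.05 at chow 0 h. Its mean log2 change with LPS was 3.68 (exact permutation test, two-sided, p = 0.005, adjusted p = 0.0133). Without HFD 0 h replicate 3 the mean log2 changes of the 3 ratios were -4.64 (Il1rn to Il1b), -3.35 (Il1a to Il1b) and 3.57 (Il18bp to Il18).

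The log2 ratio of the decoy Il1r2 to Il1r1 differed between 24 h and 0 h by 0.36 (exact permutation test, two-sided, p = 0.565, adjusted p = 0.565), with Il1r2 at 0 counts in 3 libraries. With 5 counts added in place of 1 this difference was -0.41, and without HFD 0 h replicate 2 it was -0.05.

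**Figure D4:**
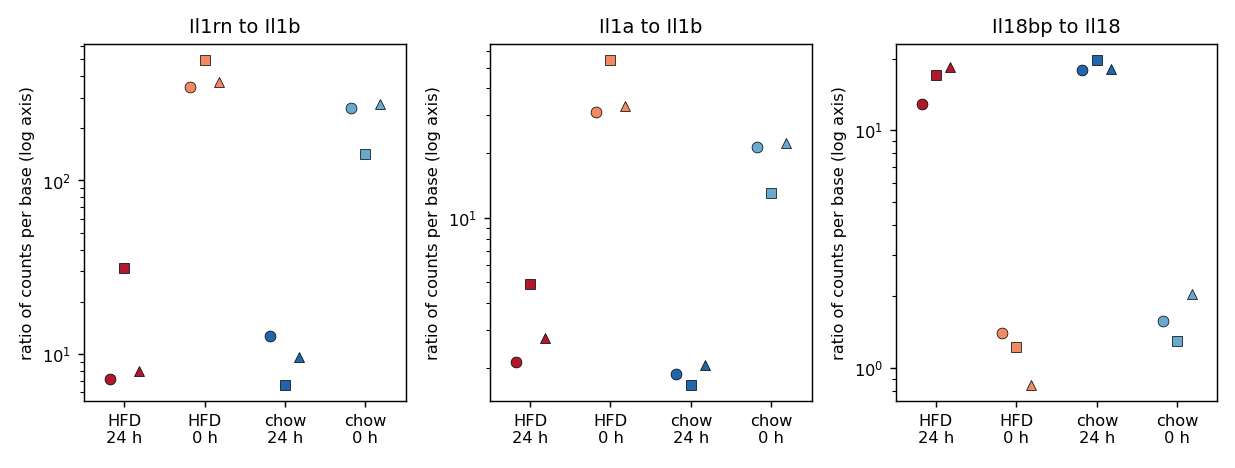
Ratio of counts per base within each library (y axes, log scale) for Il1rn to Il1b, Il1a to Il1b and Il18bp to Il18 in the 4 groups (x axes); symbols are replicates 1 to 3. The first and second ratios are lower in the 24 h libraries than in the 0 h libraries, and the third is higher, with no overlap.

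No member passed the test for diet at either time. By edgeR, 0 of the 7 tested members passed for HFD against chow at 24 h and 0 at 0 h, where 0.00791% and 0.087% of all genes tested passed. At an unadjusted p under 0.05 the member count was 1 at 24 h, Il1r1, and 0 at 0 h, and DESeq2 and limma-voom also called 0. At 24 h, Il1b averaged 62.8 ± 34.3 CPM in HFD and 90.0 ± 20.8 CPM in chow (SD, n = 3 each), a log2 difference of -0.52 ± 0.35 (95% interval -1.27 to 0.23, adjusted p = 0.764). HFD 24 h replicate 2 carried much of this, and without it the difference was -0.13. Il1rn averaged 971 ± 146 CPM in HFD and 1220.2 ± 231 CPM in chow at 24 h, a log2 difference of -0.33 ± 0.18 (-0.71 to 0.05, adjusted p = 0.686).

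Il1r1 had the largest diet difference among the tested members at both times. It averaged 29.3 ± 5.25 CPM in HFD and 53.0 ± 26.6 CPM in chow at 24 h, a log2 difference of -0.86 ± 0.38 (adjusted p = 0.624, unadjusted p = 0.0402), and the groups overlapped. At 0 h it averaged 26.4 ± 6.58 CPM in HFD and 44.2 ± 21.4 CPM in chow, a log2 difference of -0.75 ± 0.40 (95% interval -1.60 to 0.11, adjusted p = 0.855). Without chow 24 h replicate 1 the 24 h difference was -0.41, and without chow 0 h replicate 1 the 0 h difference was -0.30. These are the libraries with the highest stromal marker sums in their groups.

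At 0 h, Il1b had a log2 difference of -0.64 ± 0.93 (95% interval -2.64 to 1.36, adjusted p = 0.984 by edgeR), on the 13 and 36 counts given above. Il1a had a log2 difference of 0.05 ± 0.25 at 24 h (adjusted p = 0.983) and 0.44 ± 0.28 at 0 h (adjusted p = 0.899). For Il18, Il18bp and Il1rap the log2 differences lay between -0.16 and 0.29 at the 2 times. Without HFD 0 h replicate 3 no member passed at 0 h either, and the log2 differences at 0 h were 0.61 for Il1a, 0.37 for Il1rn, 0.41 for Il18, 0.009 for Il18bp, 0.03 for Il1rap, -0.59 for Il1b and -0.75 for Il1r1.

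The Il1a to Il1b ratio was higher in HFD at both times, by 0.72 at 24 h and by 0.70 at 0 h on the log2 scale of counts plus 1 (exact permutation test within times, two-sided, p = 0.035, adjusted p = 0.07). It passed without HFD 0 h replicate 3, where Il1b had 1 count (0.89, adjusted p = 0.01), and without HFD 24 h replicate 1 (0.84, adjusted p = 0.03). The Il18bp to Il18 ratio had a mean log2 difference of -0.37 between HFD and chow (exact permutation test, two-sided, p = 0.05, adjusted p = 0.08), and it passed without HFD 24 h replicate 3 (-0.43, adjusted p = 0.04). For Il1rn to Il1b the mean log2 difference was 0.44 (exact permutation test, two-sided, p = 0.32, adjusted p = 0.427), and for Il1r2 to Il1r1 it was 0.54 (exact permutation test, two-sided, p = 0.385, adjusted p = 0.44).

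Whether the LPS change itself differed between diets was tested as an interaction, HFD minus chow. No member passed in edgeR, where 0% of all genes tested passed, 297 genes had an unadjusted p under 0.05, and DESeq2 called 9 genes and limma-voom 0. Il1rn had the smallest unadjusted p of the members, with an LPS change of -0.52 ± 0.26 in HFD relative to chow on the log2 scale (95% interval -1.06 to 0.02, adjusted p = 1 by edgeR). The interaction was -0.39 ± 0.37 for Il1a and 0.12 ± 0.95 for Il1b, whose 0 h counts leave it poorly determined. Without HFD 0 h replicate 3 it was -0.69 for Il1rn, -0.55 for Il1a and 0.08 for Il1b.

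Of 17 further IL-1 family genes listed, 13 were in the table and 6 had enough counts to be tested. In each diet 2 rose, 0 fell and 4 did not pass, with a median log2 fold change of 1.28 in HFD and 0.69 in chow. Of all genes tested, 24.6% passed in HFD (12.7% as higher) and 26.6% in chow (13.7% as higher). With 6 genes tested, 2 calls are too few to read against these shares. Il1rl2, the IL-36 receptor chain, was the most abundant, at 31 ± 3.76 CPM at HFD 24 h against 13.0 ± 1.70 CPM at HFD 0 h and 30.1 ± 5.50 CPM at chow 24 h against 11.2 ± 1.59 CPM at chow 0 h (SD, n = 3 each). Its log2 fold change was 1.28 ± 0.19 in HFD (adjusted p = 6.5e-05) and 1.43 ± 0.18 in chow (adjusted p = 1.21e-05).

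Il1f9, which encodes the IL-36γ cytokine, rose in chow (log2 fold change 2.58 ± 0.54, adjusted p = 0.0015) and had a value of 1.49 ± 0.54 in HFD (adjusted p = 0.0533). Il18rap, the accessory chain of the IL-18 receptor, rose in HFD (1.97 ± 0.63, adjusted p = 0.0286) from levels of at most 0.779 CPM at HFD 0 h, and had a value of -0.16 ± 0.52 in chow (adjusted p = 0.868). The interaction for Il18rap had an adjusted p of 1 (unadjusted p = 0.0194). Il33, an alarmin cytokine, its receptor Il1rl1 and the IL-18 receptor chain Il18r1 did not pass in either diet, each with at most 5.27 CPM on average in any group.

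Genes of inflammasomes and cytokine release moved in both directions: of 18 tested, 8 rose, 5 fell and 5 did not pass in HFD, and 7 rose, 5 fell and 6 did not pass in chow, with medians of 0.31 in HFD and 0.27 in chow. Of all genes tested, 24.6% passed in HFD (12.7% as higher) and 26.6% in chow (13.7% as higher). Casp1, whose protease cuts the precursors of IL-1β and IL-18, rose by 1.73 ± 0.28 on the log2 scale in HFD (adjusted p = 0.000289) and by 1.54 ± 0.28 in chow (adjusted p = 0.000633). Nlrp3, an inflammasome sensor named after its values were seen, rose by 2.36 ± 0.24 in HFD (adjusted p = 9.56e-07) and by 2.07 ± 0.22 in chow (adjusted p = 1.9e-06). Gsdmd, the pore-forming gasdermin D and likewise named afterwards, rose by 1.14 ± 0.14 in HFD and by 0.99 ± 0.13 in chow. Also named afterwards, the sensor genes Nlrp1a and Nlrp1b fell. Their log2 fold changes were -1.51 ± 0.31 and -1.66 ± 0.31 in HFD, and -1.89 ± 0.32 and -1.93 ± 0.30 in chow. The sensor genes Nlrc4 and Mefv rose in both diets, and Aim2 did not pass in either. P2rx7 fell too, with -0.55 in HFD and -0.71 in chow. Txnip, a thioredoxin-binding protein, fell by 0.60 in HFD and by 0.54 in chow, and the calpain gene Capn2 fell by 0.54 in HFD and by 0.41 in chow. The calpain gene Capn1 rose in HFD (0.39 ± 0.13, adjusted p = 0.044) and had 0.28 ± 0.13 in chow (adjusted p = 0.139). Ninj1, a membrane rupture protein, and Nek7, an NLRP3 partner, did not pass in either diet.

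In IL-1 receptor signalling, a route shared with Toll-like receptors, 4 of 25 genes rose, 4 fell and 17 did not pass in HFD, and 6 rose, 3 fell and 16 did not pass in chow, with medians of 0.24 in HFD and 0.14 in chow. These counts are near the 24.6% of all genes tested that passed in HFD and the 26.6% in chow. Irak3, a kinase-like inhibitor of the pathway, rose by 1.8 ± 0.21 in HFD (adjusted p = 6.6e-06) and by 1.58 ± 0.21 in chow (adjusted p = 1.8e-05), while the kinase gene Irak1 fell by 0.35 in HFD (adjusted p = 0.0467) and by 0.36 in chow (adjusted p = 0.0369). Irak2, a further kinase of the complex, rose in chow (0.47 ± 0.15, adjusted p = 0.0284) and had 0.24 ± 0.15 in HFD (adjusted p = 0.292). The adaptors Tollip and Tab2 and the kinase gene Mapk14 did not pass in either diet.

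Of 20 NF-κB targets common to IL-1 and LPS, 18 were tested, and 17 rose and 0 fell in each diet, with medians of 2.42 in HFD and 2.05 in chow, against 12.7% of all genes tested that rose in HFD and 13.7% in chow. The gene that did not pass was Rel, an NF-κB subunit, with 0.28 ± 0.23 in HFD and 0.29 ± 0.22 in chow. Lcn2, an iron-carrier-binding protein, rose by 6.63 ± 0.33 in HFD and by 7.41 ± 0.31 in chow, and the chemokine gene Ccl2 by 5.11 ± 0.24 in HFD and by 5.21 ± 0.23 in chow. Saa3, an acute-phase protein, rose by 4.55 ± 0.28 in HFD and by 4.0 ± 0.27 in chow. The mitochondrial superoxide dismutase gene Sod2 rose by 3.76 ± 0.16 in HFD and by 3.36 ± 0.15 in chow, the adhesion molecule Icam1 by 2.56 ± 0.17 in HFD and by 2.13 ± 0.17 in chow, and the NF-κB inhibitor Tnfaip3 by 1.64 ± 0.17 in HFD and by 1.62 ± 0.17 in chow. For HFD against chow and for the interaction, edgeR called 0 genes in all 4 lists.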

How the data were processed

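Total RNA of peritoneal macrophages was sequenced in 12 libraries. Per the submitters' processing notes, CASAVA 1.8.2 and STAR 2.5.2b were used with mm10; the sources used here do not give the read counter, its annotation or its use of strand. The deposited values are raw counts for 35745 RefSeq rows. Each gene took its row with the highest mean count, giving 24562 genes, with transcript lengths and positions from the GENCODE annotation of GRCm38; 117 rows had no symbol and held 2.33% to 12.02% of a library's total. CPM used totals scaled by TMM. After filterByExpr, 12641 genes were tested with edgeR 4.0.16 in R 4.3.3 (robust glmQLFit, glmQLFTest) in 1 model of 4 group means, adjusted by Benjamini-Hochberg over all genes, at a common biological coefficient of variation of 18%. Each SE is the absolute log2 fold change over the square root of F. The fit was tested on simulated data.

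Ratios were tested by exact permutation over libraries. Alternatives included DESeq2 1.42.0, limma-voom (limma 3.58.1), other scalings, filters and transcript rows, a replicate block, a lane tag that the labels give to all chow 24 h libraries and HFD 24 h replicate 1, and each library left out. In chow the tag and LPS cannot be told apart within the diet, and for diet at 24 h only HFD 24 h holds libraries with and without it. Separate animals are not stated for the libraries of a group; p-values therefore reflect the spread between these samples only, and that spread may be technical. In every group, library pairs differed beyond sampling noise. Intervals and floors cover counting error only where they come from counts. Members and lists were chosen with earlier results of these data known. All members are named. From each other list, the up to 6 tested genes with the highest mean CPM are named, and some further genes after their values were seen.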

Additional observations from a re-analysis of the deposited data

How the results depend on the processing

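The number of members called stayed between 4 and 6 for LPS in HFD and in chow over 22 settings, and was 0 for diet and for the interaction in all settings run. Il1a, Il1b, Il1rn and Il18bp passed for LPS in every setting. The labels' names repeat the numbers of a diet's libraries at both times without saying what they mark. In HFD these label numbers are not consecutive, the same ones stand at both times, and they differ from the replicate numbers used here. Deviations from the group means correlated by 0.029 to 0.263 for same-numbered libraries in HFD and by 0.091 to 0.346 in chow, against -0.307 to 0.109 for other pairs, and 4 of the 6 libraries at 24 h correlated best with their own number. The labels state no pairing and not every same-numbered pair was above 0.1, so the replicate block is given as an alternative only. These correlations do not settle whether the libraries are paired, and the main test takes them as unpaired. The block called 5 members in HFD and 6 in chow, adding Il18 in chow (adjusted p = 0.0206). With the replicate block as sign flips, the LPS changes of the ratios, -4.48 (Il1rn to Il1b), -3.18 (Il1a to Il1b) and 3.68 (Il18bp to Il18), had an adjusted p of 0.0833 each and no longer passed; before adjustment each was at 0.0312, the smallest p that 6 pairs can give. No gene-level value that changed sign was called (36 of 762, in 13 results). These were, for the interaction, Il1b with limma-voom (-0.20) and with the replicate block (-0.10) and Il18bp with the lane tag (-0.43); for HFD against chow at 24 h, Il1a (-0.031) and Il18 (-0.081) with the lane tag; and at 0 h, Il1rap with its lowest-mean row (0.038). The Il1r2 to Il1r1 LPS difference was -0.41 with 5 counts added. With libraries left out in turn, that difference ran from -0.051 to 0.63, the diet difference of Il1a to Il1b from 0.53 to 0.89 and that of Il18bp to Il18 from -0.45 to -0.26. Log2 fold changes ran for LPS from -0.17 to 0.71 (Il1r1, chow) and -0.039 to 0.39 (Il1r1, HFD); for the interaction from -0.21 to 0.51 (Il1b), -0.54 to 0.34 (Il1r1), -0.29 to 0.66 (Il18bp) and -0.53 to 0.40 (Il18); for diet at 24 h from -0.44 to 0.067 (Il18bp), -0.26 to 0.27 (Il1a), -0.19 to 0.27 (Il18) and -0.049 to 0.20 (Il1rap); and at 0 h from -0.78 to 0.16 (Il18bp), -0.34 to 0.60 (Il18) and -0.26 to 0.03 (Il1rap). The cause of these changes was not tested. Over all genes, the calls for LPS in chow were 1509 with the lane tag, which all chow 24 h and no chow 0 h libraries carry, and DESeq2 called 41 genes for diet at 24 h and 66 at 0 h. Depth limits Il1r2 and Il1b at 0 h.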

Other observations

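Genes whose log2 CPM ran most like a member's over the 12 libraries were named by Pearson's r as a description, since all points share the LPS and library effects. For Il1b they were Slc25a37, a mitochondrial iron importer (r = 0.997), Sod2 (0.991) and Inhba, an activin subunit (0.991). For Il1rn they were the syntaxin genes Stx2 (0.989) and Stx11 (0.985) and the carbonic anhydrase gene Car13 (0.986). Il18bp ran most like Ms4a6c (0.995), Parp11 (0.994) and the interferon-inducible GTPase gene Ifi47 (0.993). Il18 had lower values, with Alg5 (0.951), Bsg (0.941) and Snx6 (0.941). Il1r2, on few counts, had the lowest, with Leng9 (0.821), Fgf2 (0.814) and Acp1 (0.801).

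Other cell type markers had low sums: B cell markers reached at most 30.9 CPM, T and NK cell markers 15.5 CPM, mast cell markers 31.8 CPM, eosinophil markers 26.1 CPM and dendritic cell markers 37.0 CPM in any library. The neutrophil list summed to 176 to 229 CPM at HFD 24 h, 109 to 162 CPM at HFD 0 h, 196 to 223 CPM at chow 24 h and 151 to 174 CPM at chow 0 h, with Csf3r and Mmp9 the main contributors, S100a8, Mmp8 and Retnlg next, and the other 8 markers near 0. The large peritoneal macrophage list summed to 390 to 409 CPM at HFD 24 h, 127 to 174 CPM at HFD 0 h, 349 to 411 CPM at chow 24 h and 152 to 175 CPM at chow 0 h. F10 carried this, with 329 to 339 CPM at HFD 24 h against 90.5 to 97.5 CPM at HFD 0 h and 281 to 342 CPM at chow 24 h against 93.3 to 112 CPM at chow 0 h. Of the 10 genes, 3 rose (Timd4, Prg4 and F10), 1 fell (Vsig4, by 2.09 in HFD and 2.39 in chow on the log2 scale) and 6 did not pass in each diet. The part of these differences in the LPS changes was not tested.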
